A study of Drosophila melanogaster with 42 samples.

Results

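Old male fruit flies (Drosophila melanogaster) that carried a mutant copy of the citrate transporter gene Indy were compared with matched controls at day 70 of adult life. The comparison rests on 6 of the 42 arrays of the series, 3 of Indy206 and 3 of control flies, chosen by the genotype and age in the sample titles, and covers every spot of the array. Indy206 flies were heterozygous over the wild-type strain Canton-S (Indy206/CS), and the controls were heterozygous for the line 2216 over the same strain (2216/CS), so both genotypes share a Canton-S chromosome set. The flies were males kept on standard laboratory food. RNA came from dissected heads and thoraces, with 15 males pooled per replicate, and was amplified in 1 linear round. Each array set 1 such sample, labelled with Cy5, against a common reference labelled with Cy3 that pooled control RNA of the 8 ages sampled. No dye swap is listed. Each value is a log2 ratio, likely with the sample over the reference, and a positive difference below means higher in Indy206. Heterozygotes keep a wild-type copy of Indy, each line stands for its genotype, and differences between the Indy206 and 2216 lines other than Indy itself cannot be told apart from the effect of the mutation.

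Indy, short for I'm not dead yet, encodes a transporter that carries citrate and related intermediates across the plasma membrane of fat body, midgut and oenocyte cells. Citrate that enters a cell feeds the TCA cycle or is cleaved to acetyl-CoA for fatty acid synthesis, so the transporter links circulating fuel to energy and lipid metabolism. Lower Indy activity is known for longer life and for a metabolic state that resembles food restriction. Day 70 lies late in the life of a fly.

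The array held 20000 spots. Spots of the same gene were averaged, which gave 19077 units, 9904 of them single genes and 9173 spots with no single gene paired here. The 6 arrays correlated with each other at 0.816 to 0.919. Control replicate 3 stood apart by its narrow spread: its interquartile range was 0.193, against 0.306 to 0.381 on the other 5 arrays of that day. That array is titled replicate 3 but described as replicate 1 in its labels. The title was used, and the array was kept as a sample of its own. Its correlation with replicate 1 was 0.866, within the range of the 6 arrays. This value cannot tell whether both arrays carried RNA of the same pool. As a check on the dissected tissue, genes of abdominal organs were set against the reference. The control means of Acp36DE, an accessory gland gene, ran from -5.09 to -2.72 over the 8 ages. Those of ProtA, a sperm protamine gene, ran from -3.50 to -1.59. Not every such gene was low at each age. For Mst57Dc and aqrs, also of the male reproductive tract, control means were -0.05 each at day 5. At day 20 they were -0.94 and -0.88, and at day 70 -3.09 and -3.10. The pool thus held more Acp36DE and ProtA transcript than the control samples did, although it is labelled as made from control RNA. A ratio gives no absolute level, so whether a marker is absent from a sample was not tested. In bulk RNA, fewer cells of a type and less RNA per cell cannot be told apart.

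The day 70 differences also moved with the order of the spots. The spots in the deposited order were divided here into 32 blocks of 25 rows with 25 spots each. Row medians of the difference recurred at a lag of 25 rows (correlation 0.67). The physical layout was not given. In blocks 1 to 16 the median difference of a row ran from 0.22 in row 2 to -0.15 in row 18, while in blocks 17 to 32 row medians stayed between -0.02 and 0.04. Row 1 of blocks 1 to 16, where 392 of 400 spots have no gene, had a median difference of 0.14, and spots with no single gene followed the same course as the rest. Row medians varied most on Indy206 replicate 3 (SD 0.172 over rows) and control replicate 1 (SD 0.114). The chromosome arms also differed in their genes with an unadjusted p under 0.05. Of 1521 X-linked genes 138 were higher and 36 lower, whereas 2L had 16 higher and 185 lower of 1848. Arm 3R had 54 higher and 254 lower of 2561, 2R had 88 and 62 of 1963, and 3L had 69 and 86 of 1954. Over all single genes 3.69% were higher and 6.31% lower. With each row centred on its own median, the arm medians came to lie between -0.02 and -0.05. Calls are given below with this centring where it changes them.

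**Figure D1:**
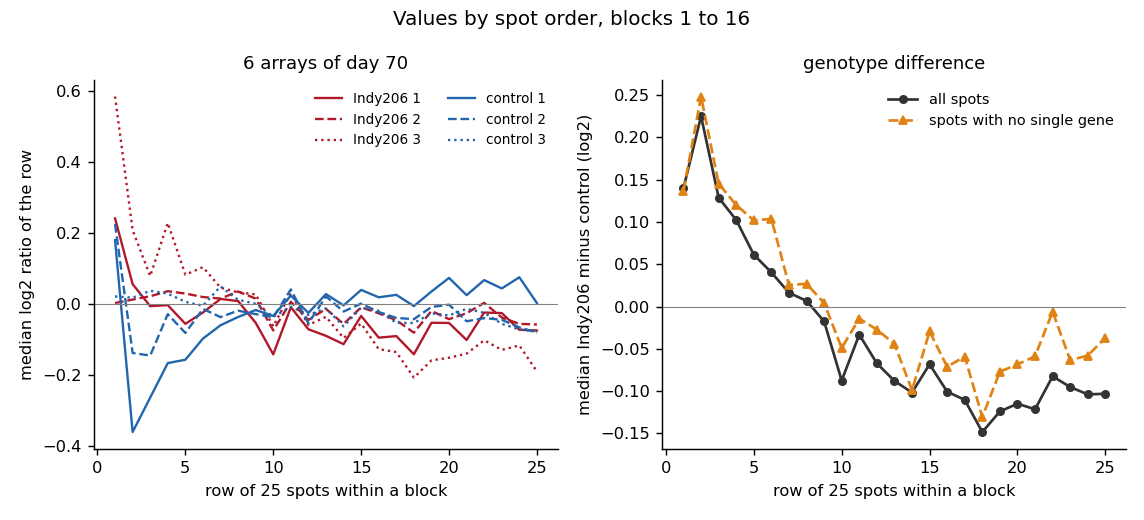
Median log2 ratio of each row of 25 spots in blocks 1 to 16, on the 6 arrays of day 70 (left, 3 line styles per genotype) and as Indy206 minus control (right, points for every spot and for spots with no single gene). The difference falls from 0.22 in row 2 to -0.15 in row 18 over every spot, and from 0.25 to -0.13 over spots with no single gene.

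Indy itself was lower in the mutant flies on every array. Its log2 ratios in Indy206 were -1.34, -1.31 and -1.52, and in the controls -0.17, -0.21 and -0.37, so the groups did not overlap and lay far apart compared with their own spread. The difference was -1.14 ± 0.17 (SE, n = 3 and 3; limma with Benjamini-Hochberg adjustment over all units, adjusted p = 0.00101), which puts Indy at 0.453 times the control level. The call held when any 1 array of day 70 was left out, with adjusted p between 0.00309 and 0.0128. It was lost after quantile normalization (difference -0.75, adjusted p = 0.264) and when the 6 arrays of day 70 were fitted alone (adjusted p = 0.0791), a fit in which no unit was called. The 10 nearest measured genes, 5 on each side of Indy, differed by -0.32 to 0.11 with no adjusted p below 0.535. At day 50 the difference of Indy was -1.02 and at day 80 it was -0.81.

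Across the genome 26 of 19077 units were called at an adjusted p under 0.05 (limma, all 42 arrays in the fit), which is 0.136% of the units. They comprised 7 higher units (0.0367%) and 19 lower ones (0.0996%). Among single genes 21 of 9904 were called (0.212%), 3 higher and 18 lower. The groups did not overlap for 25 of the 26 units, against 12.7% of all units. The sizes ran from 0.55 to 1.86 on the log2 scale, with a median of 0.94. At an unadjusted p under 0.05 there were 791 higher (4.15%) and 979 lower units (5.13%), together 9.28%. The number of calls depended strongly on single arrays. It was 82 without Indy206 replicate 1, 29 without replicate 2 and 9 without replicate 3, and 11, 7 and 129 without control replicates 1, 2 and 3. Of the 21 genes, Indy, Cyp4d21 and sand kept their call in each of these 6 fits. Without Indy206 replicate 3, 5 of the 21 stayed called, and without control replicate 2, 4 did.

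**Figure D2:**
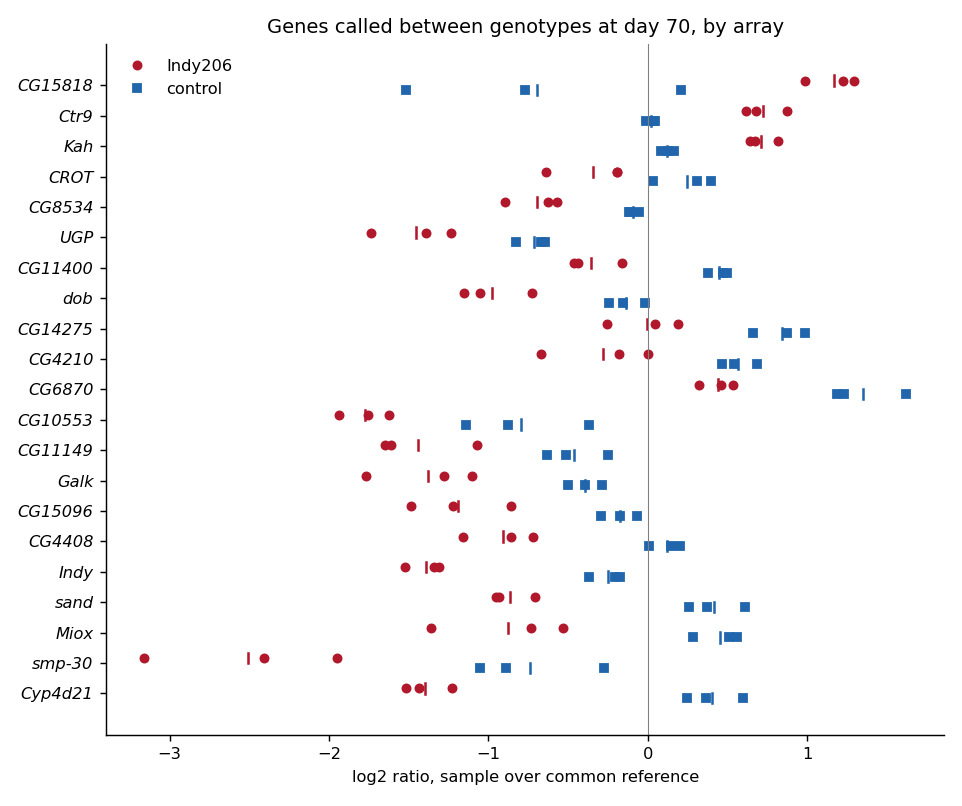
Log2 ratios of the 21 called single genes on each of the 6 arrays of day 70, with circles for Indy206, squares for control and short bars for group means. The 18 lower genes have every Indy206 point to the left of every control point, and CG15818, Ctr9 and Kah lie the other way.

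Among called units the largest decrease belonged to Cyp4d21, a cytochrome P450 of the male head also known as sxe1, whose expression is tied to the fat body and the clock. Its ratios were -1.44, -1.23 and -1.52 in Indy206 and 0.25, 0.60 and 0.37 in the controls. Indy206 arrays were below the reference and control arrays above it. The difference was -1.80 ± 0.27 (SE; limma, adjusted p = 0.00114), or 0.287 times the control level, and the call held with any 1 array of that day left out (adjusted p at most 0.0163). At day 50 its mean was 0.22 ± 0.38 in Indy206 and 0.89 ± 0.15 in the controls, and at day 80 it was -0.78 ± 0.17 and -0.52 ± 0.02 (SD, n = 3 each). The difference of -0.25 at day 80 was within its error (SE 0.27).

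Other called genes encode enzymes that act on sugars and related compounds, chosen here by their known roles and not as a tested group. Miox, the myo-inositol oxygenase that turns inositol into glucuronate, had ratios of -0.53, -0.73 and -1.36 in Indy206 and 0.56, 0.28 and 0.51 in the controls. Its difference of -1.33 ± 0.21 (SE; limma, adjusted p = 0.00259) missed the threshold without Indy206 replicate 3 (adjusted p = 0.0599), the array with its lowest value. UGP, the UDP-glucose pyrophosphorylase that supplies UDP-glucose for glycogen and trehalose, had ratios of -1.39, -1.24 and -1.73 against -0.65, -0.67 and -0.83. The groups lay apart, with a difference of -0.74 ± 0.15 (SE; limma, adjusted p = 0.0241, up to 0.184 without Indy206 replicate 3). Galk, a galactokinase, came to -0.99 ± 0.21 (SE; limma, adjusted p = 0.0462). That call was lost in several settings, with an adjusted p of 0.0861 with rows centred and of 0.285 without Indy206 replicate 3. The gene smp-30, a fly relative of the calcium-binding protein regucalcin, had ratios of -2.40, -1.95 and -3.16 in Indy206 and -0.89, -0.27 and -1.05 in the controls. Both genotypes varied widely, and the difference was -1.77 ± 0.31 (SE; limma, adjusted p = 0.00796, and 0.106 without Indy206 replicate 3). Without control replicate 2 the adjusted p was 0.12 for UGP, 0.152 for Galk and 0.0975 for smp-30, and without control replicate 1 it was 0.163 for UGP and 0.193 for Galk. Galk also missed the threshold without Indy206 replicate 2 (0.0683). After quantile normalization none of Miox, UGP, Galk and smp-30 kept its call.

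The called genes dob, CROT and CG8534 have known or family roles in lipid handling, and were likewise not tested as a group. For dob, which encodes a lipase of the brummer family, the ratios were -1.05, -0.72 and -1.15 in Indy206 and -0.24, -0.02 and -0.15 in the controls. The difference was -0.84 ± 0.15 (SE; limma, adjusted p = 0.00812, and 0.106 without Indy206 replicate 3), or 0.559 times the control level. CROT, named for carnitine octanoyltransferase, which in mammals moves medium-chain acyl groups out of peroxisomes, fell by 0.59 and was measured by a pair of spots that gave -0.54 and -0.64. Its adjusted p was 0.0405, and 0.29 without Indy206 replicate 3. CG8534, a member of the fatty acid elongase family, fell by 0.60 (adjusted p = 0.0112), but its spots disagreed, at -0.28 and -0.92, and without Indy206 replicate 3 its adjusted p was 0.106. Without control replicate 2 the adjusted p was 0.0975 for dob, 0.148 for CROT and 0.0683 for CG8534. Without control replicate 1 it was 0.257 for CROT and 0.0842 for CG8534. The calls of dob, CROT and CG8534 were also lost after quantile normalization.

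The potassium channel gene sand, whose product helps set the sleep and wake state of neurons, had ratios of -0.93, -0.95 and -0.71 in Indy206 and 0.37, 0.61 and 0.26 in the controls. The groups were more than a log2 unit apart in mean and each was tight. The difference was -1.28 ± 0.18 (SE; limma, adjusted p = 0.000475), the smallest adjusted p of any single gene, and it stayed at or below 0.00922 when any array was left out. It was also -0.87 at day 50 and -1.18 at day 80.

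The other 8 lower genes carry CG numbers, and no role is given for them here. CG6870 is the member whose control arrays were high: 1.19, 1.62 and 1.23, against 0.53, 0.46 and 0.32 in Indy206. Its difference was -0.91 ± 0.18 (SE; limma, adjusted p = 0.0216, and 0.0514, 0.106 and 0.145 without Indy206 replicate 2, Indy206 replicate 3 and control replicate 2). CG11149 had ratios of -1.61, -1.07 and -1.65 in Indy206 and -0.52, -0.25 and -0.63 in the controls, a difference of -0.98 ± 0.16 (adjusted p = 0.00259, and 0.0506 without control replicate 2). For these genes the control groups lay on either side of the reference, and neither pair of groups overlapped. The remaining genes were CG4408 at -1.03, CG15096 at -1.01, CG10553 at -0.97, CG4210 and CG14275 at -0.85 each and CG11400 at -0.80. None of these 6 held its call without Indy206 replicate 3 or without control replicate 2, where the adjusted p of CG4408, the steadiest, was 0.106 and 0.0975. Apart from CG4408, these genes also missed the threshold without control replicate 1, with adjusted p from 0.066 for CG10553 to 0.193 for CG11400 and CG14275, and CG15096, CG11400 and CG14275 missed it without Indy206 replicate 2 (0.102, 0.0985 and 0.123). CG14275 also lost its call with rows centred (adjusted p = 0.11).

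Among the 3 called higher genes CG15818 had the largest difference and the least even controls. Its ratios were 1.29, 1.23 and 0.98 in Indy206 and 0.21, -1.52 and -0.77 in the controls. The Indy206 arrays lay close together while the controls spanned over 1 log2 unit. The difference was 1.86 ± 0.33 (SE; limma, adjusted p = 0.00977, and 0.121 without control replicate 2), or 3.63 times the control level. Ctr9, a subunit of the Paf1 complex that travels with RNA polymerase II, had ratios of 0.61, 0.87 and 0.68 against 0.04, 0.04 and -0.01, a difference of 0.70 ± 0.14 (adjusted p = 0.0234). Kah, a zinc finger protein of the Snail family, had 0.64, 0.81 and 0.67 against 0.08, 0.16 and 0.12, a difference of 0.59 ± 0.12 (adjusted p = 0.0405). Both pairs of groups stood well apart. Both calls were lost with rows centred, at adjusted p = 0.102 for Ctr9 and 0.165 for Kah. They were also lost when Indy206 replicate 2 or 3 or control replicate 1 or 2 was left out, with an adjusted p of up to 0.106 for Ctr9 and up to 0.193 for Kah.

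Of the spots with no single gene, 4 were higher and 1 was lower. The strongest call of the whole comparison was among them: its ratios were 1.41 to 1.90 in Indy206 and -0.28, -0.07 and 0.04 in the controls, a difference of 1.71 ± 0.17 (SE; limma, adjusted p = 1.89e-06). Another, at 1.16, had overlapping groups, because 1 control array lay at 0.04 and the others at -1.31 and -1.61, and its call was lost with rows centred. The other higher spots were at 0.84 and 0.80, and the lower one was at -0.55.

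The next genes on the higher side did not pass the test. GstE1, a glutathione S-transferase, had ratios of 1.94, 1.88 and 1.47 in Indy206 and 0.89, 0.82 and 0.82 in the controls, with a difference of 0.92 ± 0.22 and an adjusted p of 0.103. The other 8 next in line by p were CG11382, Grip84 (a subunit of the gamma-tubulin ring), Bx42 (a splicing and transcription cofactor), CG14624, Traf6 (an adaptor of immune signalling), mei-9 (a DNA repair nuclease), Magi and APC7 (a subunit of the anaphase-promoting complex). Their differences lay between 0.32 and 0.57 and their adjusted p between 0.0728 and 0.121. All but Magi of these 8 are X-linked. With rows centred the X median went from 0.04 to -0.03, that of 2L from -0.11 to -0.05 and that of 3R from -0.08 to -0.04. Of the 21 called genes, 1 lies on X, 5 on 2L and 6 on 3R.

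The group means of the other ages come from other arrays. Their spread entered the same fit, so units with a small spread were more likely to be chosen at day 70, and counts by p at the other ages are a description, not independent of the choice. In the mean of the other 7 ages each of the 26 units had the sign it had at day 70. For 18 of them the unadjusted p was under 0.05, where 5.25% of all units were, and 9 were called there, where 39 of all units were (0.204%). At day 50, 24 of the 26 had the same sign and at day 80, 19 had. Of the 21 genes, 8 had the same sign at all 8 ages. Sizes at day 70 were used to choose the units, so their being larger than elsewhere is not a result.

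**Figure D3:**
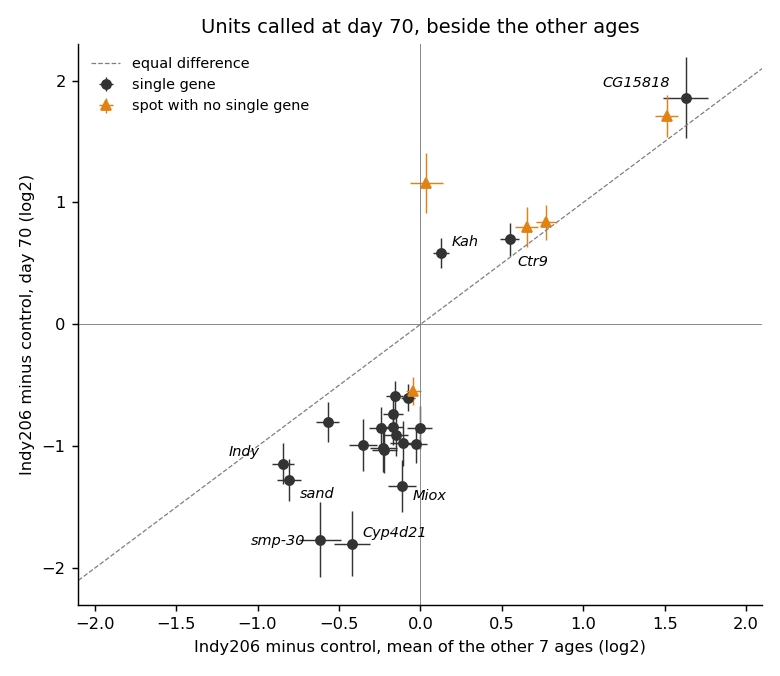
Indy206 minus control at day 70 (vertical) against the mean difference of the other 7 ages (horizontal) for the 26 called units, both in log2 with SE bars from the fit. CG15818, Ctr9, sand and Indy lie nearer the dashed line of equal difference, while Miox at -0.11 and Kah at 0.13 lie near 0 on the horizontal axis.

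The called genes differed in how far their values at other ages resembled day 70. Among those that differed there too were Indy, with a mean of -0.85 ± 0.07 over the other ages, sand at -0.81 ± 0.07, CG15818 at 1.63 ± 0.14, Ctr9 at 0.55 ± 0.06, CG11400 at -0.57 ± 0.07 and smp-30 at -0.62 ± 0.13 (SE). These 6 passed the test over the other ages, with adjusted p from 4.11e-09 for Indy to 0.0254 for smp-30 (limma). Galk (-0.35), Cyp4d21 (-0.42) and CG4210 (-0.24) had smaller means, with adjusted p of 0.145, 0.191 and 0.283. With means close to 0, Miox was at -0.11 ± 0.09, CG11149 at -0.03 ± 0.07 and CG14275 at -0.01 ± 0.07 over the other ages, with unadjusted p of 0.211, 0.698 and 0.944.

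Whether the genotype difference at day 70 departed from the other ages was tested over all units, and none was called. At an unadjusted p under 0.05 there were 1371 units (7.19%) against the mean of the other ages, 1384 (7.25%) against day 80 and 724 (3.8%) against day 50. The smallest p-values against the other ages belonged to CG11149 (-0.95 ± 0.17, adjusted p = 0.0874), Miox (-1.21 ± 0.23, 0.113), Cyp4d21 (-1.38 ± 0.29, 0.201), Argl (-0.96 ± 0.20, 0.201) and Nep6 (-0.69 ± 0.15, 0.217), each by limma. Argl encodes argininosuccinate lyase of arginine synthesis and Nep6 a member of the neprilysin peptidase family. The count against the other ages was 3, 5 and 1 without Indy206 replicates 1, 2 and 3. It was 1 without control replicate 2 and 21 without control replicate 3. No gene is therefore called particular to day 70.

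The levels of single genes by age differed in which genotype stood apart at day 70. The genes were chosen by their day 70 arrays, so these levels are a description. Miox stayed between 0.17 and 0.45 in the controls at every age, while its Indy206 mean was 0.44 ± 0.25 on day 30 and -0.21 ± 0.41 on day 50, reached -0.87 ± 0.43 by day 70, and was 0.09 ± 0.24 at day 80 (SD, n = 3 each). UGP stood at -1.45 ± 0.25 in Indy206 and -0.72 ± 0.10 in the controls at day 70, against -0.90 ± 0.24 and -0.87 ± 0.18 at day 80. For CG6870 the control level stood out. Its Indy206 mean was 0.44 at day 70 and 0.69 at day 80, whereas the control mean was 0.50 at day 50, 1.35 at day 70 and 0.72 at day 80.

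Set against the mean of days 50 and 80, Indy206 at day 70 differed by -1.11 ± 0.23 for Cyp4d21, -0.82 ± 0.18 for Miox, -0.64 ± 0.13 for UGP and -0.60 ± 0.13 for dob (SE). In the controls the same contrast gave 0.22, 0.24, -0.10 and -0.06. For CG6870 it was -0.15 ± 0.15 in Indy206 and 0.74 ± 0.15 in the controls. These contrasts share the day 70 arrays by which the genes were called. A low Indy206 level or a high control level at day 70 was thus favoured by the choice, and the values are a description. After adjustment over all units none of these contrasts was called in limma, with smallest values of 0.0795 for Cyp4d21, UGP and dob in Indy206 and 0.145 for CG6870 in the controls. Unadjusted p-values under 0.05 numbered 1785 (9.36%) in Indy206 and 1191 (6.24%) in the controls.

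**Figure D4:**
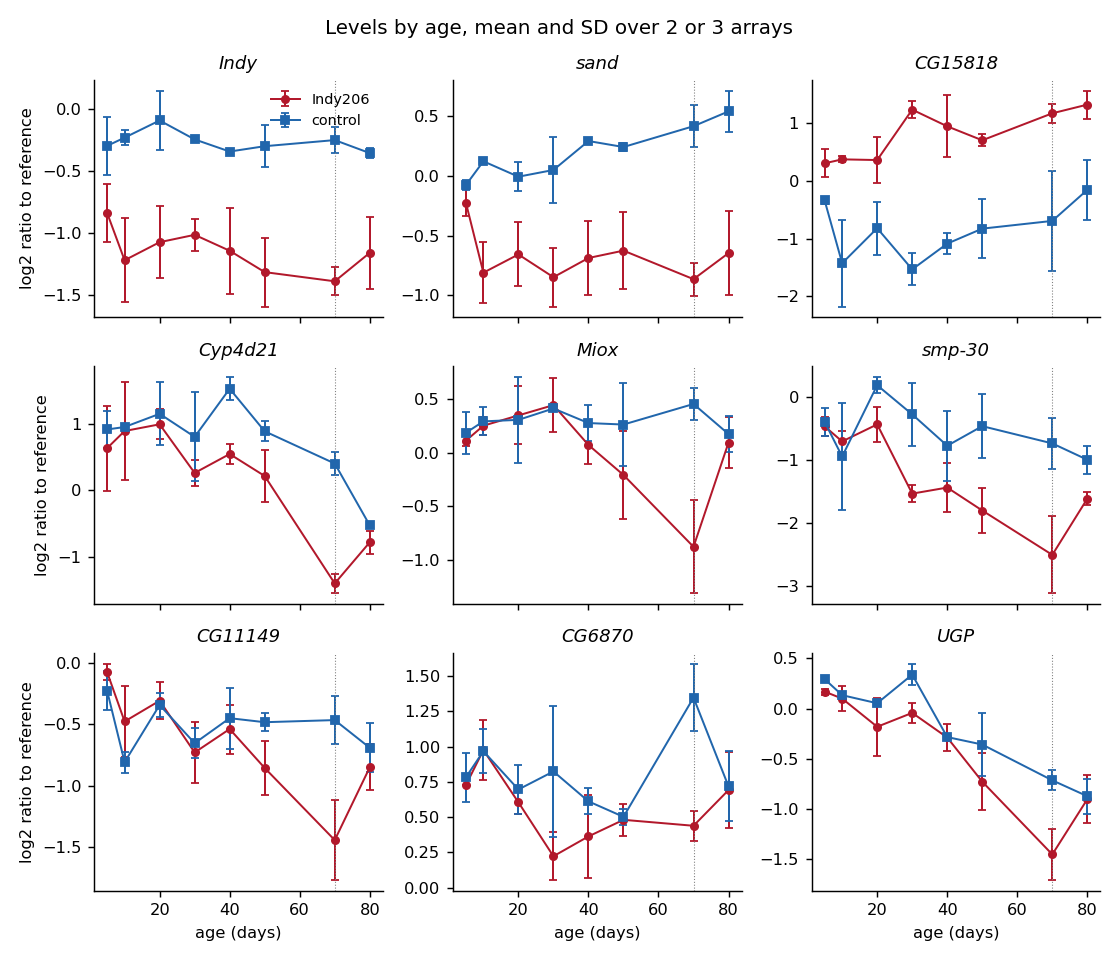
Mean log2 ratio to the reference by age in days for 9 genes called at day 70, with SD bars over 2 or 3 arrays, circles for Indy206 and squares for control; the dotted line marks day 70. Indy, sand and CG15818 are separated at most ages, Cyp4d21, Miox, smp-30, CG11149 and UGP have their lowest Indy206 mean at day 70, and CG6870 has its highest control mean there. The genes were chosen by the same day 70 arrays.

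Energy metabolism was examined through lists of genes for each step. For comparison, 59.0% of all 9904 single genes had a difference below 0, their median difference was -0.04, and 6.31% had an unadjusted p under 0.05 as lower and 3.69% as higher. No subunit of the respiratory chain or of ATP synthase was called. In complex I, 17 of 21 measured subunits were below 0, with a median of -0.19, and 3 had an unadjusted p under 0.05, namely ND-B17.2 (-0.31), ND-15 (-0.29) and ND-PDSW (-0.41). Its median ratio per array was -0.28 to -0.15 in Indy206 and -0.10 to 0.04 in the controls, without overlap. Complexes II and III (7 of 8 below 0, median -0.25) and complex IV (7 of 8, median -0.22) overlapped between groups by array. RFeSP, the Rieske iron-sulfur protein, was at -0.39 and COX7A at -0.48. ATP synthase had 11 of 13 subunits below 0 and a median of -0.16, with ATPsynG at -0.60 (adjusted p = 0.588).

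These medians were also below 0 in the mean of the other 7 ages, with complex I and ATP synthase at -0.12 each, complexes II and III at -0.14 and complex IV at -0.13. At day 50 the medians of complex I, complexes II and III, complex IV and ATP synthase were -0.22, -0.39, -0.24 and -0.28, further below 0 than at day 70. At day 80 they were 0.03, 0.08, 0.0002 and 0.09. With 1 array left out at a time, the day 70 median of complex I stayed between -0.23 and -0.10, that of complexes II and III between -0.42 and -0.13, that of complex IV between -0.40 and -0.04 and that of ATP synthase between -0.21 and -0.11. After quantile normalization these medians were -0.13, -0.16, -0.09 and -0.08.

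Genes that handle citrate, malate and acetyl-CoA had a median of -0.29, with 11 of 13 below 0, and Indy was the 1 called member. AcCoAS, the acetyl-CoA synthetase that activates acetate, had ratios of -0.47, -0.80 and -0.41 in Indy206 and -0.13, -0.005 and 0.25 in the controls. Its groups did not overlap, and its difference of -0.60 ± 0.15 (SE; limma) had an unadjusted p of 0.000589 and an adjusted p of 0.136. Pepck1, the gluconeogenic carboxykinase, was at -0.76 (adjusted p = 0.473), and the malic enzyme gene Men at -0.42 (adjusted p = 0.667). The list's median was -0.10 after quantile normalization and -0.11 with arrays scaled to a common spread. TCA cycle enzymes had a median of -0.07, near that of all genes, with 7 of 10 below 0, and ScsbetaA, a subunit of succinyl-CoA synthetase, at -0.61 (adjusted p = 0.442). In glycolysis 6 of 10 enzymes were below 0, with a median of -0.19 that was -0.09 after quantile normalization, among them Pgi, glucose-6-phosphate isomerase, at -0.54 (adjusted p = 0.258), and Gapdh1 at -0.47.

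All 12 measured genes of fatty acid oxidation were below 0, with a median of -0.22 and none called. Mtpbeta, a subunit of the mitochondrial trifunctional protein, was at -0.51 (adjusted p = 0.375), colt, the carnitine carrier of the inner mitochondrial membrane, at -0.43 (0.36) and yip2, a thiolase, at -0.36 (0.548). The median was -0.11 after quantile normalization, -0.12 with arrays scaled to a common spread and between -0.28 and -0.11 with 1 array left out. The same list had a median of 0.02 over the other 7 ages, -0.18 at day 50 and 0.19 at day 80. Per array its median was -0.59 to -0.31 in Indy206 and -0.28 to -0.12 in the controls. Lipid synthesis and storage genes had 9 of 13 below 0 and a median of -0.23, and 4 had an unadjusted p under 0.05 (the list's median was -0.14 after quantile normalization, and -0.36 to -0.13 with 1 array left out): bgm, an acyl-CoA synthetase, at -0.58 (adjusted p = 0.244), the lipid droplet protein gene Lsd-1 at -0.57 (0.329), the lipase gene Lip4 at -0.53 (0.53) and Lpin, a phosphatidate phosphatase, at -0.33 (0.425). The Lsd-1 value averages 3 spots that disagreed, at -0.79, -0.85 and -0.08.

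**Figure D5:**
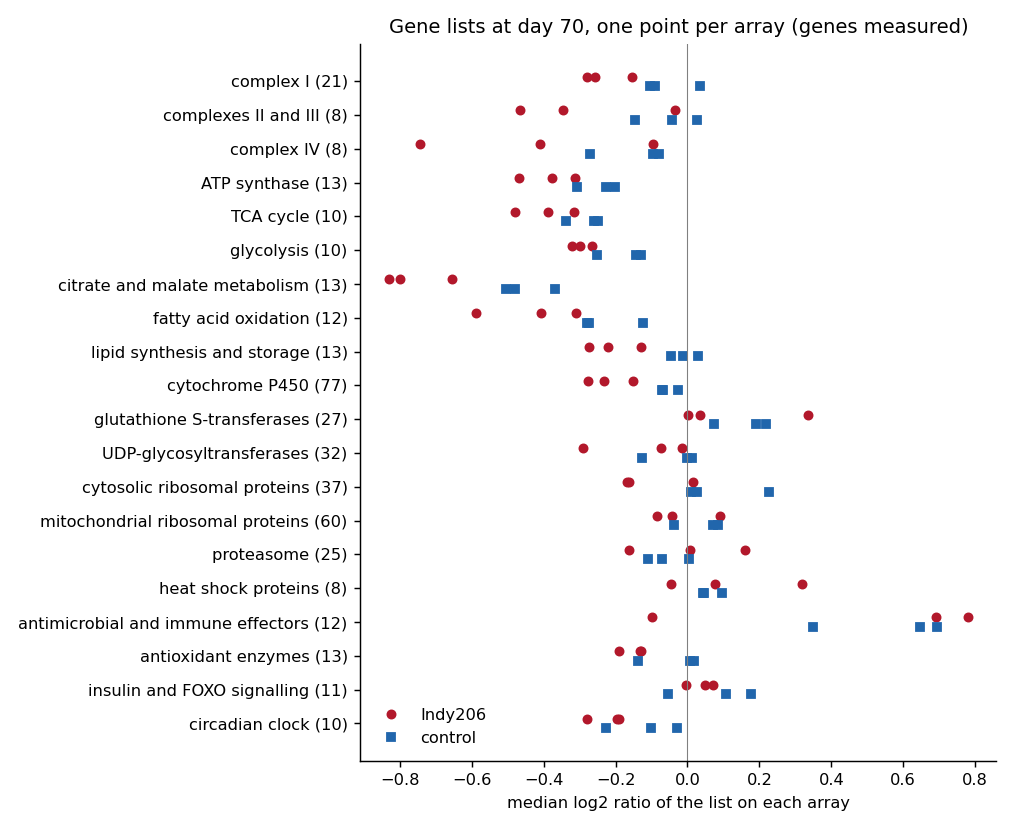
Median log2 ratio of 20 gene lists on each of the 6 arrays of day 70, with circles for Indy206, squares for control and the number of genes measured in brackets. Citrate and malate metabolism, lipid synthesis, cytochrome P450 and complex I are separated by genotype. So are glycolysis, fatty acid oxidation and ATP synthase, while proteasome, immune and heat shock lists are interleaved.

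Detoxification enzymes include Cyp4d21. Of 77 cytochrome P450 genes 54 were below 0, the median was -0.17, 13 had an unadjusted p under 0.05 as lower and 0 as higher, and Cyp4d21 alone was called. Cyp6d2 came next with ratios of -1.02, -0.78 and -1.01 in Indy206 and -0.18, 0.0004 and -0.002 in the controls. Its difference was -0.88 ± 0.20 with an adjusted p of 0.0611, and it was called once rows were centred. It was also lower over the other 7 ages (-0.51 ± 0.08, limma, adjusted p = 0.000938). Per array the P450 median was -0.28 to -0.15 in Indy206 and -0.07 to -0.03 in the controls. The P450 median over the other ages was -0.02, with -0.15 at day 50 and -0.02 at day 80. At day 70 it was -0.10 after quantile normalization and -0.12 with arrays scaled to a common spread.

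Glutathione S-transferases went both ways, with 16 of 27 below 0 and a median of -0.10. GstE12 was at -0.89 ± 0.20 (adjusted p = 0.0609), and over the other ages it was lower as well (-0.57 ± 0.08, limma, adjusted p = 0.000222). GstD3 was at -1.29 ± 0.33 (adjusted p = 0.121), with Indy206 replicate 1 at -0.94 and the other two arrays at 0.98 and 0.89. GstE1, described above, had the opposite sign and was called higher over the other ages (0.71 ± 0.09, adjusted p = 3.05e-05). Among UDP-glycosyltransferases 18 of 32 were below 0, with a median of -0.05 that turned to 0.009 with rows centred. At an unadjusted p under 0.05, 7 of them were lower and 1 higher. Ugt37B1 was at -0.80 (adjusted p = 0.238) and Ugt35E1 at 0.28 (adjusted p = 0.402).

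Insulin signalling showed no called member. Ilp2, an insulin-like peptide of brain neurosecretory cells, had ratios of 0.38, 0.40 and -0.11 in Indy206 and 0.89, 1.37 and 1.13 in the controls. The groups did not overlap, yet the difference of -0.91 ± 0.31 had an adjusted p of 0.299. It was -0.21 ± 0.13 over the other ages. The growth inhibitor gene Tsc1 was at -0.26 (adjusted p = 0.538) and foxo, the transcription factor held in check by insulin, at -0.17 (0.771). The list's median was -0.08, with 6 of 11 below 0.

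Immune effectors varied more within genotypes than between them. Their median per array was -0.10 to 0.78 in Indy206 and 0.35 to 0.69 in the controls, the median difference was -0.10, and leaving out single arrays moved it from -0.32 to 0.22. PGRP-SC2, an amidase that degrades peptidoglycan, had ratios of -0.80, 0.60 and 2.00 in Indy206 and -1.08, -1.76 and 0.42 in the controls (adjusted p = 0.455), and Dif, a factor of Toll signalling, was at -0.37 (0.224). Heat shock genes had 4 of 8 below 0 and a median of 0.03. The chaperone regulator stv was at 0.45 and the small heat shock protein gene l(2)efl at 0.50, with adjusted p of 0.442 and 0.698. Among antioxidant enzymes (median -0.09) Gclm, which modulates glutathione synthesis, was at -0.59 (adjusted p = 0.306). In the circadian list (median -0.14) tim was at -0.71 (adjusted p = 0.288), from 4 spots at -0.95, -1.01, -0.24 and -0.62, and the clock neuropeptide gene Pdf at -0.53 (0.59).

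Cytosolic ribosomal proteins were below 0 in 34 of 37 cases, with a median of -0.21 and none called, and their median per array was -0.17 to 0.01 in Indy206 and 0.01 to 0.23 in the controls. RpS20 was at -0.49 (adjusted p = 0.347). Over the other 7 ages the list had a median of -0.06, at day 50 of -0.05 and at day 80 of 0.07. Mitochondrial ribosomal proteins had 44 of 60 below 0 and a median of -0.07, with mRpL37 at -0.50 (adjusted p = 0.288). The proteasome had 12 of 25 below 0 and a median of 0.02, with Rpn1 at 0.34 and Prosalpha2 at -0.40 (adjusted p of 0.412 and 0.522).

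Markers of tissues in and around the dissected parts were followed as well, and none was called. Photoreceptor genes had a median difference of -0.04 (7 of 12 below 0), neuron genes of 0.02 (1 of 9) and haemocyte genes of -0.005 (7 of 14). Muscle genes had a median of 0.03 (8 of 18 below 0), with Mlp84B, a LIM protein of the Z-disc, at 0.69, the actins Act79B and Act87E at 0.45 and 0.46 and the troponin gene TpnC4 at -0.75 (adjusted p from 0.39 to 0.47). At an unadjusted p under 0.05, 4 muscle genes were higher and 1 lower. Fat body genes had 9 of 10 below 0 and a median of -0.13, which was -0.19 with rows centred. Lsp2, a storage hexamerin, had ratios of -2.26, -2.07 and -4.50 in Indy206 and -0.74, -0.59 and -1.48 in the controls (difference -2.01 ± 0.83, adjusted p = 0.425), and the yolk protein gene Yp1 was at -0.56 (0.235).

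Genes of the male reproductive tract lay far below the reference in both genotypes. Accessory gland genes had a median ratio per array of -3.79 to -3.21 in Indy206 and -3.50 to -2.75 in the controls, and testis genes came to a mean of -1.72 ± 0.46 and -1.66 ± 0.34 (SD, n = 3 each). The median difference of accessory gland genes was -0.58 (13 of 16 below 0) and that of testis genes -0.25 (14 of 19). Both signs turned in some settings, to 0.11 for accessory gland genes with arrays scaled to a common spread and to 0.01 for testis genes in that setting. Acp36DE, a seminal fluid protein of sperm storage, was at -1.26 and the sperm protamine gene ProtB at -0.99 (adjusted p of 0.442 and 0.524). With a covariate that was the median per array over the genes of both lists pooled, there were 27 calls, 23 of them shared with the 26. Midgut genes had 27 of 36 below 0 and a median of -0.15, which was 0.15 after quantile normalization.

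Of 42 measured genes that lie next to a called gene, 0 were called by limma, where 0.212% of all single genes were, so a count of 0 says little about neighbours. An unadjusted p under 0.05 was found for 6 of them, against 6.31% lower and 3.69% higher among all single genes. The smallest adjusted p, 0.311, belonged to sturkopf, a lipid droplet protein gene beside Ctr9, at 0.41 ± 0.14. The lipid droplet gene Lsd-2, beside dob, was at -0.48 (adjusted p = 0.63) and was not among those 6. It is named for its known role, and neighbours were not tested as a group.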

How the data were processed

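Values of 42 two-colour arrays, 3 per group at day 70, were used as the authors deposited them, as log2 ratios of Cy5 over Cy3; they were made with limma, per the submitters' processing notes. Sources used here do not state background correction, normalization, log base or direction, and the last pair follow limma's convention. Spots were named from the platform annotation (10827 with 1 gene, 10823 of them matched to the gene table of assembly Release 6 plus ISO1 MT, used for names and gene order). A model of 16 group means was fitted with lmFit and eBayes (limma 3.58.1, R 4.3.3, 26 residual degrees of freedom), with Benjamini-Hochberg adjustment over all units in each contrast. It was checked on simulated data with independent normal noise, which held neither the spot-order pattern nor the unequal spread of the arrays. An exact permutation test of 3 against 3 arrays cannot go below p = 0.1. P-values measure the spread between pools of 15 males, if each array held a pool of its own.

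Named were Indy, called genes, the next higher genes by p up to 12, up to 4 members per list, the 5 smallest p against other ages, and neighbours of Indy or of called genes. Genes, lists and the contrast over other ages were chosen with earlier results of these data known. Alternatives changed scaling, samples, weights, variance, replicate blocks and spot centring; the last was chosen after seeing the data. Signal over background was not analysed here.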

Additional observations from a re-analysis of the deposited data

How the results depend on the processing

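The 26 calls at day 70 became 6 after quantile normalization (Indy -0.75), 7 with arrays scaled to a common spread, 17 with array quality weights, 17 with days 50, 70 and 80 alone, and 0 with the 6 arrays of day 70 alone, where Indy kept its value of -1.14 but not its call (adjusted p = 0.0791) and 1400 units had an unadjusted p under 0.05. Same-numbered arrays are not stated to share anything, so numbers were not treated as pairs. Correlations of deviations were 0.12, -0.17 and 0.20 for same-numbered arrays and -0.44 to 0.34 for the others. With 3 arrays per group these values do not settle whether arrays were paired. With the replicate number as a block there were 24 calls over all arrays (21 shared, Indy -1.14). With the 6 arrays alone there were 0 (1460 at an unadjusted p under 0.05, and Indy at -1.14, limma, adjusted p = 0.389). Leaving out 1 array gave 7 to 129 calls at day 70, 0 to 21 against the other 7 ages, 0 to 2 against day 80 and 0 to 2 against day 50. Control replicate 3 gave the highest count: 86 higher and 43 lower units, of which 51 and 4 lay in rows 1 to 8 of blocks 1 to 16, which hold 16.1% of the units. With rows centred there were 23 calls, 21 of them shared, and without control replicate 3 as well 36 at day 70, 3 against the other ages, 1 against day 80 and 1 against day 50. Centring arrays on their medians, robust variance and a minimum difference of 0.5 each left 26 calls. Among single genes, CG15818, CG6870, Ctr9, Cyp4d21 and sand kept their call after quantile normalization. With arrays scaled to a common spread CG15818, CG6870, Cyp4d21, Indy, Miox and sand did. No called gene reversed its direction in any of 20 alternatives, and 15 of 91 uncalled genes that could be named passed the test in at least 1. Of 493 list medians recomputed, 36 moved by more than the spread between arrays. The limits are 3 arrays per group and the dependence on single arrays and on spot order, whose cause was not tested.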
